A study of Mus musculus with 154 samples.

Results

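The insulin and glucagon signalling genes described here were 8 listed symbols, Insr, Gcgr, Irs1, Irs2, Pik3r1, Akt2, Foxo1 and Ppargc1a. They were chosen for their place in the pathway, with earlier results of these data known. All 8 were present among the 13289 genes of the liver count table. Total RNA had been sequenced from the caudate lobe of the liver of male mice, 5 weeks old and fasted overnight, to ask whether substituted chromosomes act on gene expression additively or through inter-chromosomal epistasis. In a chromosome substitution strain (CSS), a chromosome of the host strain C57BL/6J (B6) is replaced by its counterpart from the donor strain A/J. The groups were strain B6 (20 mice), 8 single CSSs heterozygous for 1 A/J chromosome on a B6 background (63 mice) and 15 double CSSs heterozygous for 2 different A/J chromosomes on that background (71 mice). Strains are written with the dam first. The single CSSs carried A/J chromosome 3, 6, 14 or 17 from the dam, as in (B6.A14 x B6)F1, or chromosome 4, 5, 8 or 10 from the sire, as in (B6 x B6.A8)F1, with 8 mice each except for chromosome 5 with 7. Each double CSS joined 1 of the dam chromosomes 3, 6, 14 and 17 to 1 of the sire chromosomes 4, 5, 8 and 10 and held 3 to 6 mice, as in (B6.A14 x B6.A8)F1. Every group shared the B6 background, the overnight fast and isoflurane anaesthesia. A substitution replaces a whole chromosome, so an effect belongs to all of its A/J alleles together.

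Insulin and glucagon are opposing hormones that set whether the liver stores or releases glucose. Insulin binds the insulin receptor, a tyrosine kinase that phosphorylates the adaptor proteins Irs1 and Irs2. These recruit phosphoinositide 3-kinase, whose lipid product activates the kinase Akt2, and Akt2 phosphorylates the transcription factor Foxo1 and keeps it out of the nucleus. Glucagon binds a G protein-coupled receptor that raises cyclic AMP, and during fasting cyclic AMP signalling induces the coactivator PGC-1alpha, encoded by Ppargc1a, which with Foxo1 drives gluconeogenic genes such as Pck1 and G6pc.

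Totals per library ran from 4638701 to 30465477 counts, with medians of 18806894 in B6, 15660086 in the single CSSs and 15746823 in the double CSSs. Levels are given in CPM, the counts of a gene scaled to a common library size after TMM normalization, and the lowest count of any listed gene in any mouse was 41 (Irs2). All 8 genes had at least 15 counts in every mouse. The hepatocyte markers were all measured (7 of 7, summed at 52152 to 146706 CPM). The non-hepatocyte markers were low, with Kupffer cell markers (5 of 5) at 121.6 to 306 CPM, endothelial (5 of 5) at 233 to 338, stellate (5 of 5) at 224.5 to 398, cholangiocyte (3 of 4, without Krt19) at 2.64 to 9.35, leukocyte (2 of 4) at 10.3 to 46.5, erythroid (3 of 3) at 94.8 to 622.8 and pancreatic acinar (1 of 4) at 3.03 to 11.4. In (B6.A14 x B6.A4)F1, the mouse E733, labelled as male, had a sum of 2.94 CPM over 4 Y-linked genes, against 228 to 432 CPM in the other mice. In these bulk samples, fewer cells of a type and less RNA per cell cannot be told apart.

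The receptors differed in level. Per kilobase of annotated exon, Gcgr, the glucagon receptor, was the highest of the 8 genes in B6 (51.3 ± 4.02 CPM per kb, SD, n = 20). Insr, the insulin receptor, stood at 11.4 ± 0.949 CPM per kb. The regulatory subunit Pik3r1 stood at 9.77 ± 1.9, the kinase Akt2 at 7.89 ± 0.461, Ppargc1a at 6.44 ± 2.31, Foxo1 at 3.57 ± 0.769, Irs1 at 3.4 ± 0.737 and Irs2 at 2.14 ± 0.844 CPM per kb. Between the lowest and the highest strain mean of log2 CPM, the range was 0.18 for Akt2, 0.32 for Gcgr, 0.39 for Insr, 0.43 for Irs1, 0.53 for Pik3r1, 0.54 for Foxo1, 1.09 for Irs2 and 1.45 for Ppargc1a. The SD of single mice within strains was smaller than this range for each gene, from 0.07 for Akt2 to 0.47 for Irs2 and 0.48 for Ppargc1a. With the 24 strains put in order of mean, neighbours lay closer together than that SD for all 8 genes (the largest of 23 steps was 0.42 for Ppargc1a). Steps in an ordered series this long are small whether or not strains differ. A range over 24 means can likewise exceed the SD of single mice without a strain effect. Neither comparison bears on the strain effect as a whole.

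A joint test of all 23 strain coefficients asked whether a gene's level depended on the strain at all. Of the 8 genes, 6 passed it, beside 51.4% of all genes. The adjusted p, from edgeR's quasi-likelihood F-test with Benjamini-Hochberg adjustment over all genes, was 3.94e-07 for Ppargc1a, 4.11e-06 for Insr, 0.00231 for Pik3r1, 0.00502 for Akt2, 0.00947 for Foxo1 and 0.01 for Gcgr. The 2 receptor substrates did not pass (Irs2, 0.0635, and Irs1, 0.558), although Irs2 passed in 4 of 10 alternatives and Irs1 in 1. Of the 6 genes that passed, Foxo1 did so in 8 of the 10 alternatives and Akt2 and Pik3r1 in 9 each. Ppargc1a, Insr and Gcgr passed in all 10.

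The main effects asked what each single substitution did on the B6 background. A main effect is the log2 fold change of a single CSS from B6 in a model of all mice with 8 main effects, 15 interactions and 5 surrogate variables, and it was called at an adjusted p under 0.05, adjusted separately for genes on the substituted chromosome (cis) and all others (trans). Every main effect called in this model was a decrease. Of 64 tests (8 genes by 8 substitutions), 14 passed (21.9%), 14 downward and 0 upward, where 11.1% of all such tests passed over all genes, 5.74% downward and 5.32% upward. Restricting the table to genes with at least 15 counts in every mouse kept all 8 listed genes. It left 8 calls, of which 4 were downward, and the share of all genes called there is not given. The upward calls there were Insr with chromosomes 4 (0.18) and 10 (0.17) and Irs2 with chromosomes 4 (0.55) and 8 (0.54). The 14 calls fell on 5 genes: Ppargc1a with 4, Foxo1 and Pik3r1 with 3 each, and Insr and Akt2 with 2 each. All 8 comparisons shared the same 20 B6 mice, so the main effects of a gene are not independent of each other.

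Chromosome 8 gave the most. In (B6 x B6.A8)F1, 5 of the 8 genes were lower than in B6 and none was higher, beside 29.6% of all genes called. The decrease in log2 fold change was 0.84 ± 0.21 (SE) for Ppargc1a, 0.46 ± 0.14 for Foxo1, 0.29 ± 0.10 for Pik3r1, 0.22 ± 0.05 for Insr and 0.10 ± 0.04 for Akt2. With at least 15 counts in every mouse, all of these calls but that of Akt2 were lost, and Irs2 passed upward (0.54, adjusted p = 0.0262). With 10 surrogate variables those of Foxo1, Pik3r1 and Akt2 were lost. The summed hepatocyte markers were 52152 to 97376 CPM in this strain, against 93867 to 146706 in B6. Their part in these decreases was not tested. Chromosomes 3, 14, 17 and 4 lowered 2 genes each, beside 3.7%, 22.5%, 3.67% and 13.5% of all genes. Chromosome 3 lowered Ppargc1a and Foxo1, chromosome 14 lowered Ppargc1a and Insr, chromosome 17 lowered Pik3r1 and Foxo1, and chromosome 4 lowered Pik3r1 and Akt2. Chromosome 6 lowered Ppargc1a alone, beside 8.09% of all genes. With chromosomes 5 and 10 none of the 8 genes was called in this model, or by DESeq2 with the same surrogate variables. The shares of all genes called were 0.768% and 6.64%, and 4 of those 16 tests had an unadjusted p under 0.05. The median log2 fold change of the 8 genes was -0.16 with chromosome 8 and -0.15 with chromosome 14, where the median of all genes was -0.01 in both.

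**Figure D1:**
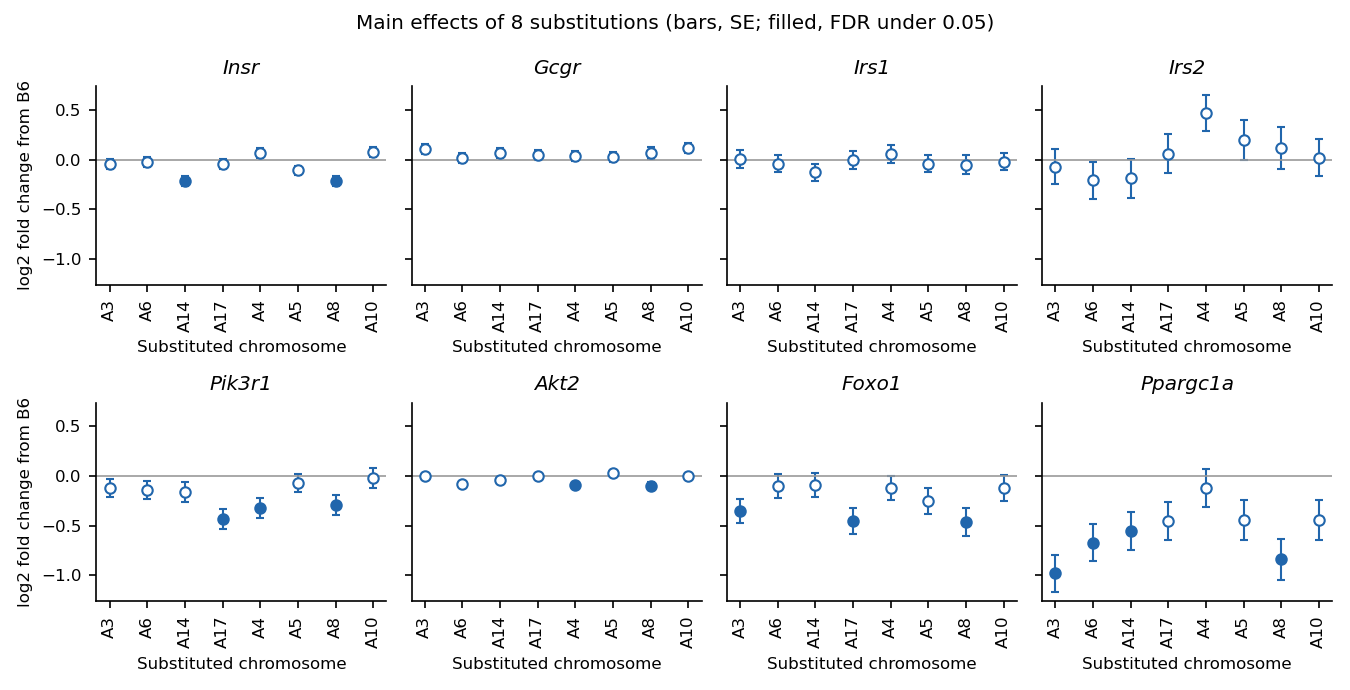
Log2 fold change from B6 of each of the 8 genes (panels) in the 8 single CSSs (x axis, substituted chromosome), with bars for the SE and filled points for an adjusted p under 0.05. All 14 filled points of this model lie below 0, the lowest at -0.98 for Ppargc1a with chromosome 3, and Gcgr, Irs1 and Irs2 have none.

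Insr (ENSMUSG00000005534) lies on chromosome 8 (GRCm38, 3122061 to 3279617, minus strand), so its effect with A/J chromosome 8 is in cis. The 20 B6 mice ranged from 128 to 187.6 CPM with a median of 158. The 8 mice of (B6 x B6.A8)F1 ranged from 119 to 152 CPM with a median of 124.4, and the 8 mice of (B6.A14 x B6)F1 from 118 to 148 with a median of 133. All 8 mice of each strain lay below the B6 median, while both ranges overlapped that of B6. The adjusted p was 0.000372 with chromosome 8 and 0.000339 with chromosome 14, where the effect of -0.22 ± 0.05 is in trans. The chromosome 8 call was lost among genes with at least 15 counts in every mouse (-0.07, adjusted p = 0.217). The largest of the other main effects was -0.11 ± 0.05 with chromosome 5 (adjusted p = 0.355). The summed hepatocyte markers, which Alb leads, also moved in these strains, from 93867 to 146706 CPM in B6 to 52152 to 97376 with chromosome 8 and 56702 to 114909 with chromosome 14. Their part in the Insr result was not tested. Within strains, Insr had a Pearson's r of 0.09 with the hepatocyte sum and -0.40 with the Kupffer sum over all mice, and the Kupffer sum was 156 to 306 CPM with chromosome 8 and 173 to 269 with chromosome 14, against 151 to 291 in B6.

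Gcgr (ENSMUSG00000025127; chromosome 11, 120530699 to 120538986, plus strand) showed no called main effect. All 8 of its main effects were above 0, from 0.02 to 0.12. The largest was 0.12 ± 0.05 with chromosome 10 (adjusted p = 0.159). Of the 8 tests 2 had an unadjusted p under 0.05, and DESeq2 called 0. B6 ranked second lowest of the 24 strains at 134 ± 10.5 CPM (SD, n = 20; range 111 to 155).

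Of the adaptors, neither Irs1 (ENSMUSG00000055980; chromosome 1, 82233101 to 82291416, minus strand) nor Irs2 (ENSMUSG00000038894; chromosome 8, 10984681 to 11008458, minus strand) had a called main effect or interaction in this model. Irs1 stood at 31.1 ± 6.74 CPM in B6 (n = 20), and its main effects ran from -0.13 to 0.06. None of its 8 main effects had an unadjusted p under 0.05 in edgeR, and DESeq2 called 0, but with genes limited to those with at least 15 counts in 75% of the mice the effect with chromosome 4 passed (0.25, adjusted p = 0.0305). Irs2 stood at 13.5 ± 5.34 CPM in B6, from 4.27 to 24.3. Its largest main effect was 0.47 ± 0.18 with chromosome 4, which did not pass (adjusted p = 0.0716) and was the 1 of its 8 with an unadjusted p under 0.05 (DESeq2 called 0). One mouse of (B6 x B6.A4)F1 had 48.0 CPM of Irs2, where the other 7 had 9.82 to 17.8. Irs2 lies on chromosome 8, and its effect with that chromosome was 0.12 ± 0.21 (adjusted p = 0.716). Among genes with at least 15 counts in every mouse, Irs2 passed with chromosomes 4 (0.55, adjusted p = 0.0225) and 8 (0.54, adjusted p = 0.0262). The 250 bases before the RefSeq start (GRCm38.p6) of both adaptor genes are shown because, of the 7 listed genes with such a sequence, they were the only 2 with a match to any of the 3 motifs searched on both strands. These were the E-box CACGTG (in capitals), found in 6.02% of 32851 such sequences, the FoxO core GTAAACA (3.17%) and the cyclic AMP response element TGACGTCA (1.55%). The match began 115 bases before the start in Irs1 and 44 bases before it in Irs2.
Irs1 promoter, chr1:82291440-82291689, minus strand: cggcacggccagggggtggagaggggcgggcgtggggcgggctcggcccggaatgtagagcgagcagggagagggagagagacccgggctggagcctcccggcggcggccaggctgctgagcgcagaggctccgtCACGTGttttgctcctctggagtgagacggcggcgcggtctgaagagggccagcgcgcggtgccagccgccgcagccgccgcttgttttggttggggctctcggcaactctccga
Irs2 promoter, chr8:11008930-11009179, minus strand: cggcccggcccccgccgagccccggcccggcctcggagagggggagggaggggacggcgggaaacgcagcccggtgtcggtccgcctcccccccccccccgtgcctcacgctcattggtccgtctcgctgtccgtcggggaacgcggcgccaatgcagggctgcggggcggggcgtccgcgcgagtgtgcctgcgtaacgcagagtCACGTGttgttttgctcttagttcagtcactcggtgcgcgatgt

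Pik3r1 (ENSMUSG00000041417; chromosome 13, 101680563 to 101768217, minus strand) encodes the p85alpha regulatory subunit of phosphoinositide 3-kinase. In B6 it ranged from 63.7 to 140 CPM with a median of 99.7. It was lowest among the single CSSs in (B6.A17 x B6)F1, with a range of 59.0 to 94.2 and a median of 75.3 CPM, and all 8 mice lay below the B6 median. The fold change there was -0.43 ± 0.10 (adjusted p = 0.00952). With chromosome 4 it was -0.32 ± 0.10 (adjusted p = 0.0168; 59.8 to 120 CPM, 5 of 8 mice below the B6 median). With chromosome 8 it was -0.29 ± 0.10 (adjusted p = 0.0253; 72.0 to 104 CPM, 7 of 8 below). None of these 3 calls held with 10 surrogate variables (-0.32, -0.24 and -0.09) or with genes limited to at least 15 counts in 75% of the mice (-0.29, -0.15 and -0.04) or in every mouse (-0.32, -0.17 and -0.24). Those with chromosomes 4 and 8 were also lost without surrogate variables (-0.17 and -0.21) and at an FDR of 0.01. The chromosome 4 call was further lost with 5 within-strain components. The chromosome 8 call was further lost without the mouse E733 and with body weight in the model. The calls with chromosomes 17, 4 and 8 held in 9, 6 and 5 of 12 alternatives. The largest of the other main effects was -0.16 with chromosome 14.

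Akt2 (ENSMUSG00000004056; chromosome 7, 27591552 to 27640826, plus strand) encodes the main Akt kinase of insulin-responsive tissues and was the most even of the 8 genes, at 56.3 ± 3.28 CPM in B6 (51.4 to 61.5, n = 20). It was 47.9 to 55.9 CPM in (B6 x B6.A4)F1, with all 8 mice below the B6 median, and 45.7 to 56.2 CPM in (B6 x B6.A8)F1, with 7 of 8 below. The effects were -0.09 ± 0.03 (adjusted p = 0.0458) and -0.10 ± 0.04 (adjusted p = 0.0263). Both ranges overlapped that of B6, and with 10 surrogate variables both calls were lost (-0.02 and -0.06). The effect with chromosome 6 was -0.08 ± 0.03 (adjusted p = 0.104).

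Foxo1 (ENSMUSG00000044167), the transcription factor that Akt2 restrains, lies on chromosome 3 (52268336 to 52353221, plus strand). The 20 B6 mice had 22.3 to 45.02 CPM with a median of 29.6. With chromosome 3, its own chromosome, the 8 mice had 20.4 to 30.6 CPM with a median of 22.4. With chromosome 17 they had 18.6 to 29.7 (median 23.2), and with chromosome 8 they had 17.5 to 28.0 (median 23.3). In these strains 7, 7 and 8 of 8 mice lay below the B6 median, and each range overlapped that of B6. The effects were -0.35 ± 0.12 (adjusted p = 0.0396), -0.45 ± 0.13 (adjusted p = 0.034) and -0.46 ± 0.14 (adjusted p = 0.00584). All 3 calls were lost with 10 surrogate variables (-0.33, -0.40 and -0.33) and with genes limited to at least 15 counts in 75% of the mice (-0.30, -0.31 and -0.23) or in every mouse (-0.27, -0.25 and -0.28). The first was also lost when cis and trans genes were adjusted together. The largest of the others was -0.25 ± 0.13 with chromosome 5 (adjusted p = 0.432).

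Ppargc1a (ENSMUSG00000029167; chromosome 5, 51454250 to 51567726, minus strand) changed the most. In B6 it ranged from 14.1 to 74.4 CPM with a median of 41.2 (42.4 ± 15.2, SD, n = 20), which put B6 second highest of the 24 strains. With chromosome 3 the 8 mice had 15.5 to 32.5 CPM with a median of 19.9, all below the B6 median. With chromosome 8 they had 19.2 to 34.3 (median 26.9) and with chromosome 6 they had 17.03 to 35.2 (median 27.0), again with 8 of 8 below the B6 median. With chromosome 14 they had 20.8 to 55.0 (median 30.8), with 6 of 8 below. The B6 range spanned all of these values. They were -0.98 ± 0.19 with chromosome 3 (adjusted p = 0.00109), -0.84 ± 0.21 with chromosome 8 (adjusted p = 0.00104), -0.67 ± 0.19 with chromosome 6 (adjusted p = 0.0159) and -0.55 ± 0.19 with chromosome 14 (adjusted p = 0.0249). All 8 main effects were below 0. Its effect with its own chromosome, 5, was -0.44 ± 0.20 and did not pass (adjusted p = 0.188). The call with chromosome 3 held in all 12 alternatives. Among genes with at least 15 counts in every mouse the calls with chromosomes 8, 6 and 14 were lost, at -0.34, -0.42 and -0.22, and with body weight in the model those with chromosomes 6 and 14, at -0.57 and -0.43. The chromosome 14 call was lost in 7 of the 12. Within strains, Ppargc1a had an r of -0.27 with body weight over all mice.

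**Figure D2:**
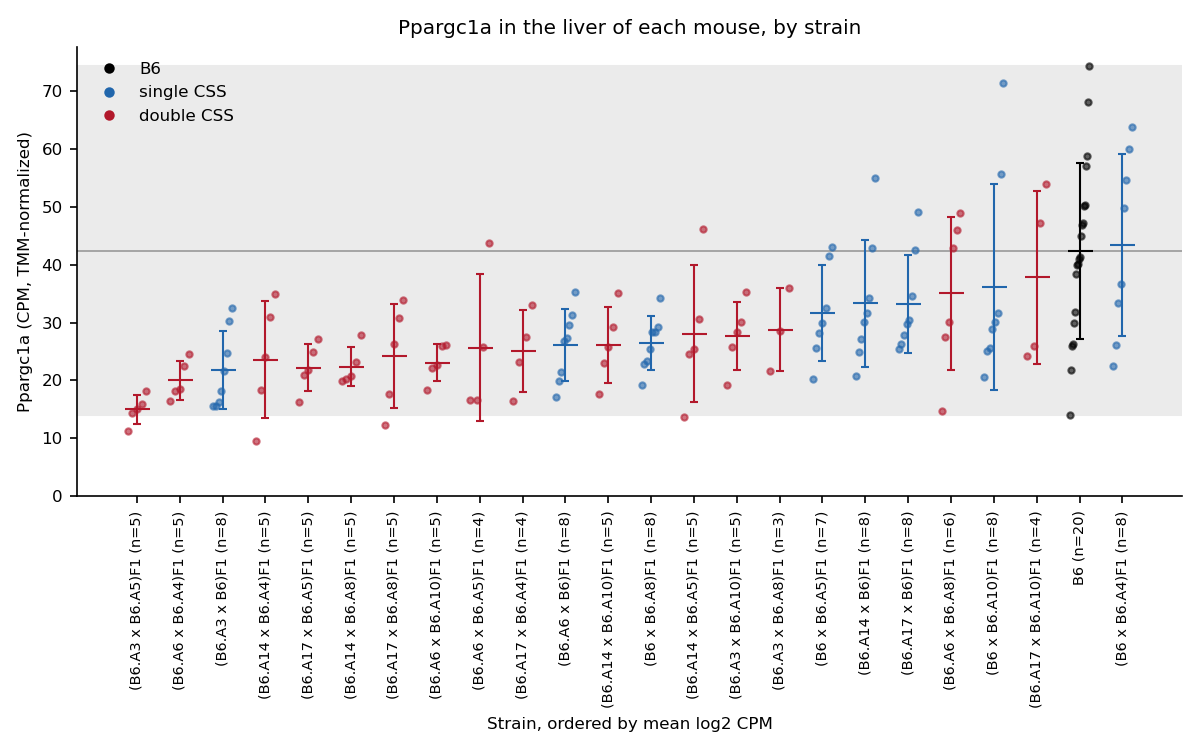
CPM of Ppargc1a in each mouse (point) by strain (x axis, ordered by mean log2 CPM), with the mean and SD of each strain, and the B6 mean and range as a grey line and band. B6 lies second from the right with a mean of 42.4 CPM, and (B6.A3 x B6.A5)F1 lies at the left with a mean of 14.96 CPM.

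The interaction asked whether both substitutions together gave the sum of their main effects. It is the log2 difference of the double CSS from that sum, so that a positive value with negative main effects puts the double CSS nearer to B6. Of 120 tests, 7 passed (5.83%), 7 upward and 0 downward, beside 5.96% of all such tests over all genes, 3.35% upward and 2.61% downward. All 7 were in crosses that carried chromosome 8. Among genes with at least 15 counts in every mouse 6 passed, 4 upward, and the 2 downward were Insr in A6:A10 (-0.31) and A6:A4 (-0.27). The share of all genes called there is not given. Each interaction is computed from the same B6 and single CSS mice as the main effects, with the opposite sign for the single CSSs. A low value in a single CSS thus enters both. A joint test of the 15 interactions passed for 3 genes, Insr (adjusted p = 0.000279), Akt2 (0.0057) and Ppargc1a (0.0117), beside 27.4% of all genes, and Foxo1 did not pass (0.115).

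In A6:A8, 3 of the 8 genes passed, beside 24.8% of all genes: Ppargc1a by 1.10 ± 0.31 (adjusted p = 0.00504), Akt2 by 0.24 ± 0.05 (adjusted p = 0.00047) and Insr by 0.22 ± 0.08 (adjusted p = 0.0332). In A14:A8, 2 passed, beside 32.4% of all genes: Insr by 0.46 ± 0.08 (adjusted p = 5.75e-06) and Akt2 by 0.15 ± 0.06 (adjusted p = 0.0341). In A3:A8, 2 passed, beside 7.56% of all genes: Ppargc1a by 1.30 ± 0.35 (adjusted p = 0.013) and Foxo1 by 0.74 ± 0.23 (adjusted p = 0.0335). In A17:A8, where 8.68% of all genes passed, none of the 8 did in this model, and Akt2 was nearest at 0.16 ± 0.06 (adjusted p = 0.0606). Without surrogate variables Insr passed in A17:A8 (0.35 ± 0.1, adjusted p = 0.0031). With 5 within-strain components in place of the surrogate variables, Insr (0.36 ± 0.08, adjusted p = 9.19e-05), Akt2 (0.14, 0.0332) and Foxo1 (0.48, 0.0421) passed there. That setting also brought Insr (0.28, 0.0152) and Akt2 (0.15, 0.0498) past the threshold in A3:A8.

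Insr in A14:A8 held under every alternative tried. The 5 mice of (B6.A14 x B6.A8)F1 had 150.3, 159.4, 160.6, 162.6 and 173.7 CPM, where the single CSSs had 118 to 148 (chromosome 14) and 119 to 152 (chromosome 8). The double CSS overlapped the latter by 1 mouse and lay within the B6 range of 128 to 187.6. Its log2 difference from B6 was 0.01 ± 0.06, against a summed main effect of -0.45 ± 0.08. The hepatocyte sum was 91183 to 120388 CPM in the double CSS, and its part in this result was not tested. In (B6.A6 x B6.A8)F1, with 142.6, 145, 154.9, 161.6, 167 and 176.3 CPM, Insr was -0.03 ± 0.05 from B6, against a sum of -0.25 ± 0.08. That second call was lost in 7 of 12 alternatives, and the effect was 0.03 in the genes with at least 15 counts in every mouse.

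Akt2 was 53.7, 55.9, 58.0, 58.9, 59.5 and 60.8 CPM in the 6 mice of (B6.A6 x B6.A8)F1 and 54.1, 56.0, 56.2, 56.5 and 57.6 in the 5 mice of (B6.A14 x B6.A8)F1. Both sets lay within the B6 range of 51.4 to 61.5 CPM. The log2 differences from B6 were 0.06 ± 0.04 and 0.01 ± 0.04, where the sums of main effects were -0.18 ± 0.06 and -0.14 ± 0.06. The call in A14:A8 was lost without the mouse E733 or with DESeq2 size factors (0.14 in both), with 10 surrogate variables (0.11) and without 1 of the 5 mice (0.14, adjusted p = 0.0677). The call in A6:A8 was lost with 10 surrogate variables (0.16, adjusted p = 0.116).

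Foxo1 and Ppargc1a lay nearer to B6 than the summed effects in the same cross. The 3 mice of (B6.A3 x B6.A8)F1 had 28.1, 31.0 and 32.4 CPM of Foxo1, 2 of them above both single CSSs, and 21.6, 28.5 and 36.0 CPM of Ppargc1a. Foxo1 differed from B6 by -0.06 ± 0.17 against a sum of -0.80 ± 0.20, and Ppargc1a by -0.52 ± 0.28 against a sum of -1.82 ± 0.31. With 3 mice, the Foxo1 call was lost on leaving out any 1 of them (0.69 to 0.80, adjusted p up to 0.108), and the Ppargc1a call on leaving out either of 2 (1.15 and 1.28, adjusted p = 0.0665 and 0.0722). In (B6.A6 x B6.A8)F1, Ppargc1a had 14.7, 27.5, 30.1, 42.9, 46.0 and 49.0 CPM, all within the B6 range, and differed from B6 by -0.41 ± 0.22 against a sum of -1.51 ± 0.32. That interaction did not pass with 10 surrogate variables (0.97, adjusted p = 0.106) or among genes with at least 15 counts in every mouse (0.52, adjusted p = 0.259). Neither did Ppargc1a in A3:A8 (1.10 and 0.84, adjusted p = 0.14 and 0.0639).

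**Figure D3:**
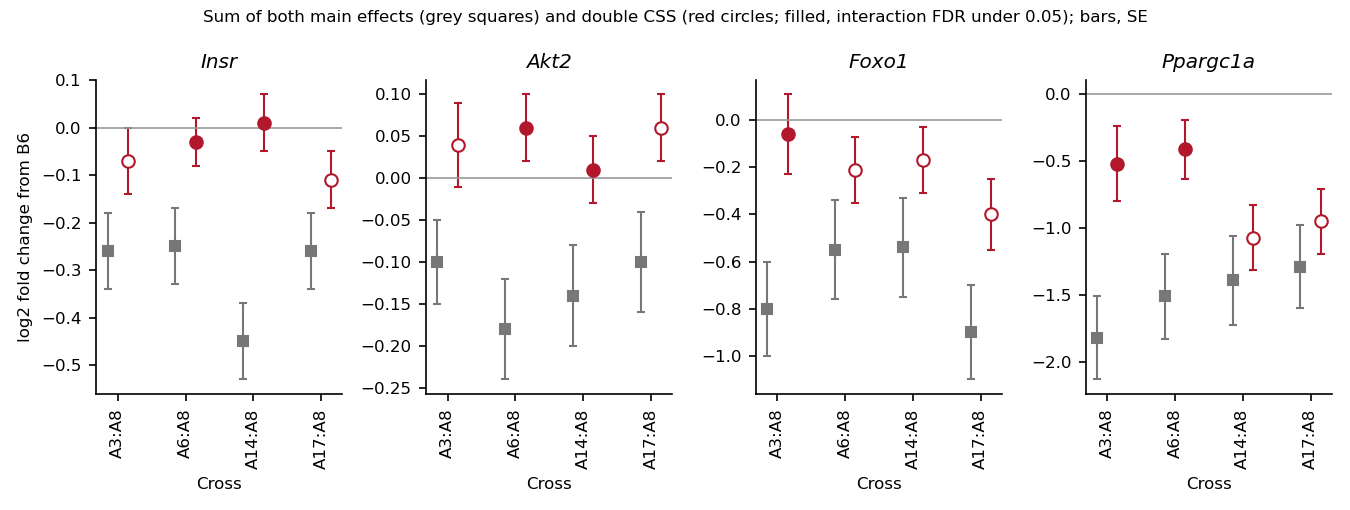
Log2 fold change from B6 of Insr, Akt2, Foxo1 and Ppargc1a (panels, each with its own y axis) in the 4 crosses with chromosome 8, as the sum of both main effects (grey squares) and as measured in the double CSS (red circles, filled where the interaction passed), with bars for the SE. Every circle lies above its square; for Insr in A14:A8 they stand at 0.01 and -0.45.

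In the other 11 crosses none of the 8 genes had a called interaction in this model, or in DESeq2 with the same surrogate variables. Together with A17:A8 these were 96 tests, of which 13 had an unadjusted p under 0.05. The share of all genes called was 1.17% in A3:A10, 0.542% in A6:A4, 0.0527% in A6:A10, 4.63% in A14:A4, 4.04% in A14:A5, 4.16% in A14:A10, 1.21% in A17:A4 and 0.113% in A17:A10. It was 0.0% in A3:A5, A6:A5 and A17:A5. The nearest to the threshold was Akt2 in A6:A4 (0.17 ± 0.05, adjusted p = 0.105), followed by Pik3r1 in A17:A4 (0.47 ± 0.17, adjusted p = 0.132). With 5 within-strain components Akt2 passed in A6:A4 (0.17, adjusted p = 0.0284) and A6:A10 (0.16, adjusted p = 0.0449). Among genes with at least 15 counts in every mouse, Insr passed downward in A6:A10 (adjusted p = 0.00255) and A6:A4 (adjusted p = 0.0375). All 15 interactions of Pik3r1 were above 0, from 0.07 to 0.47, with 4 at an unadjusted p under 0.05 and 0 called by edgeR or DESeq2. Gcgr, Irs1 and Irs2 had 0 called and 0 at an unadjusted p under 0.05 among 15 each, and DESeq2 called 0.

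Each double CSS was then set against B6 itself. This comparison was added after the effects above had been seen. Of 120 tests, 15 passed (12.5%), beside 3.98% of all genes over the 15 double CSSs. Ppargc1a was lower in 7 of 15 crosses, Gcgr was higher in 4, Pik3r1 was lower in 2, Foxo1 was lower in 1 and Irs2 was higher in 1. Insr, Akt2 and Irs1 passed in none, with log2 differences of -0.19 to 0.01, -0.09 to 0.06 and -0.12 to 0.24.

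Gcgr was above B6 in all 15 crosses, by 0.01 to 0.28, and all of these differences share the same 20 B6 mice. It was highest in (B6.A3 x B6.A8)F1, whose 3 mice had 145.2, 162.04 and 187.2 CPM, a difference from B6 of 0.28 ± 0.07 (adjusted p = 0.0307). In (B6.A17 x B6.A8)F1 it was 152 to 164 CPM, higher by 0.26 ± 0.06 (adjusted p = 0.00568). In (B6.A6 x B6.A8)F1 it was 148 to 171 CPM, higher by 0.21 ± 0.06 (adjusted p = 0.0399), and in (B6.A17 x B6.A4)F1 it was 142 to 167 CPM, higher by 0.22 ± 0.07 (adjusted p = 0.0452). These overlapped the upper end of the B6 range of 111 to 155 CPM. Without surrogate variables the calls in (B6.A3 x B6.A8)F1 and (B6.A17 x B6.A4)F1 were lost (0.30 and 0.20). The sums of both main effects in these crosses were 0.18, 0.12, 0.08 and 0.09, and none of the interactions passed. Within strains, Gcgr had an r of -0.45 with the hepatocyte sum over all mice. That sum was 73843 to 113341 CPM in (B6.A3 x B6.A8)F1, 83808 to 104809 in (B6.A17 x B6.A8)F1, 81874 to 99318 in (B6.A6 x B6.A8)F1 and 90367 to 112772 in (B6.A17 x B6.A4)F1, against 93867 to 146706 in B6, and its part in the result was not tested.

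**Figure D4:**
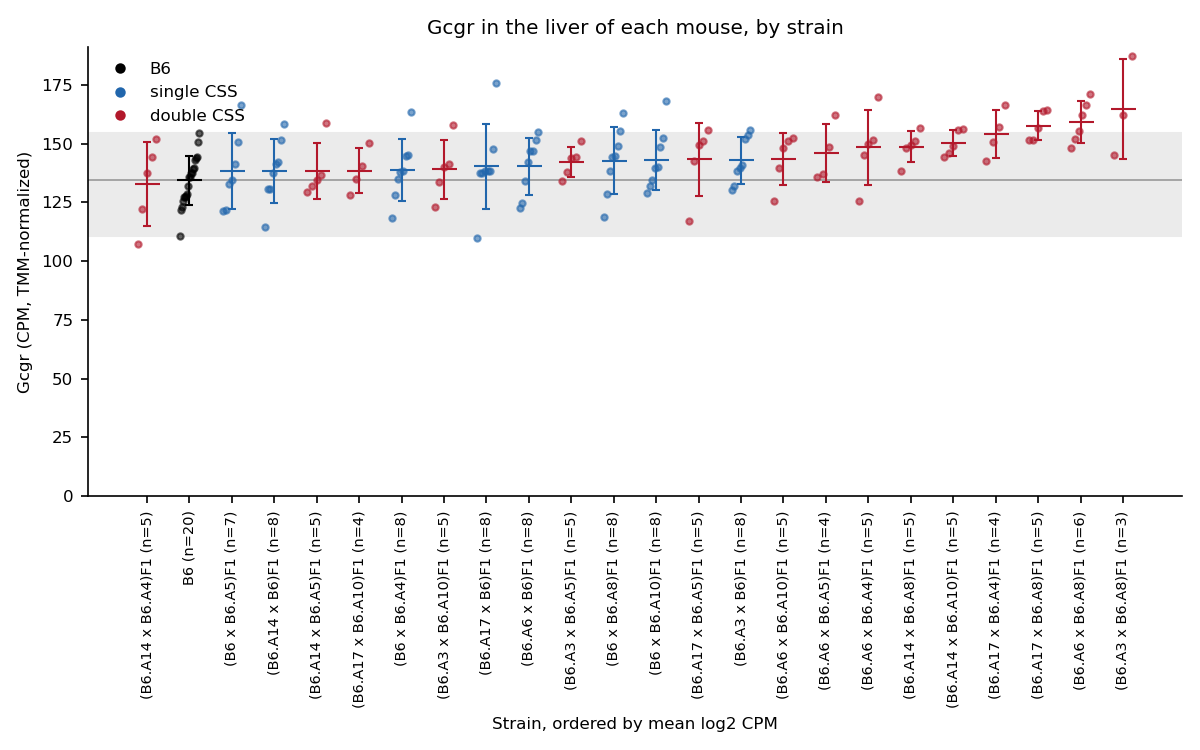
CPM of Gcgr in each mouse (point) by strain (x axis, ordered by mean log2 CPM), with the mean and SD of each strain, and the B6 mean and range as a grey line and band. B6 is second from the left at 134 CPM, and the 3 strains at the right, all double CSSs with chromosome 8, have means of 158, 159 and 164.8 CPM.

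Ppargc1a was lowest in (B6.A3 x B6.A5)F1, whose 5 mice had 11.3 to 18.2 CPM with a median of 15.03. The difference from B6 was -1.40 ± 0.25 (adjusted p = 5.98e-06), next to a sum of main effects of -1.42 ± 0.30. Foxo1 was also lowest in this strain, at 16.8 to 28.6 CPM (-0.58 ± 0.15, adjusted p = 0.00331), next to a sum of -0.59 ± 0.19. In (B6.A6 x B6.A4)F1, Ppargc1a was 16.4 to 24.5 CPM, lower than in B6 by -1.14 ± 0.24 (adjusted p = 0.00142), and in (B6.A14 x B6.A8)F1 it was 19.9 to 27.9 CPM (-1.07 ± 0.24, adjusted p = 0.00243). The other 4 crosses were A17:A8 (-0.95 ± 0.24), A14:A4 (-0.87 ± 0.23), A17:A5 (-0.83 ± 0.23) and A17:A4 (-0.81 ± 0.25). All 15 crosses were below B6. With 10 surrogate variables the calls in A14:A4 (-0.66) and A17:A4 (-0.75) were lost, the latter also without surrogate variables (-0.77).

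In (B6.A14 x B6.A4)F1, Irs2 was highest of all strains, at 13.7 to 31.1 CPM with a median of 26.3, higher than B6 by 0.65 ± 0.21 (adjusted p = 0.026), and Pik3r1 had its lowest mean of log2 CPM, with mice from 48.1 to 109 CPM and a difference of -0.34 ± 0.11 (adjusted p = 0.0252). E733 is 1 of these 5 mice, with 26.3 CPM of Irs2 and 54.5 CPM of Pik3r1. Without it the Irs2 difference was 0.71 ± 0.23 (adjusted p = 0.0388) and the Pik3r1 difference was -0.29 ± 0.12, which did not pass (adjusted p = 0.124). With 10 surrogate variables neither passed (0.50 and -0.28). In (B6.A17 x B6.A8)F1, Pik3r1 was 74.2 to 85.2 CPM (-0.38 ± 0.11, adjusted p = 0.0303), a call that was lost with 0 or 10 surrogate variables.

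Among mice of the same strain, some of the 8 genes varied together. Over all mice, with each gene's log2 CPM centred on its strain mean, 4 of 28 pairs had an absolute Pearson's r of at least 0.40. Foxo1 and Ppargc1a had an r of 0.60 (Spearman's rho 0.57, and r = 0.58 without the 2 mice farthest from the median of Foxo1). Irs2 and Pik3r1 had an r of -0.41 (rho -0.32, and r = -0.34 without 2 mice). Pik3r1 and Foxo1 had an r of 0.42 (rho 0.37, 0.41), and Akt2 and Gcgr an r of 0.40 (rho 0.38, 0.41). Both values of a pair come from 1 library and share its depth and composition. These are descriptions, with no test. Over the 24 strain means, r was 0.53 for Foxo1 and Ppargc1a and -0.66 for Irs2 and Pik3r1, and without the 2 strains farthest from the median it was 0.36 and -0.41. The sequences before the starts of Foxo1 and Ppargc1a are shown because these varied together most closely. Neither held an exact match to any of the 3 motifs named above, and partial matches were not searched.
Foxo1 promoter, chr3:52268087-52268336, plus strand: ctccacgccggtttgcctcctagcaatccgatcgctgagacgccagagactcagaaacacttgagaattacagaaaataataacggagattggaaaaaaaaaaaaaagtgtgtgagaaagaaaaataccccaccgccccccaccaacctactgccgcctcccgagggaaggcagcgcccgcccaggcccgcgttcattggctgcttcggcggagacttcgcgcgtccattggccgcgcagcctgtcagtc
Ppargc1a promoter, chr5:51567726-51567975, minus strand: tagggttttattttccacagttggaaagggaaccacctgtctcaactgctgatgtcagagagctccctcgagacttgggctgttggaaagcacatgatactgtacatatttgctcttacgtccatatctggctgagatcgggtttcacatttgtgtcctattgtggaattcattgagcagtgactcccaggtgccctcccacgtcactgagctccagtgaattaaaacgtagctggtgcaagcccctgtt

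Of the 64 pairs of a listed gene with 1 of 8 targets of the pathway, 6 had an absolute r of at least 0.40. Ppargc1a had an r of 0.61 with Igfbp1 (rho 0.61), a Foxo1 target that encodes an IGF binding protein, and of 0.44 with Pck1 (rho 0.48), which encodes the cytosolic phosphoenolpyruvate carboxykinase of gluconeogenesis. Pik3r1 had r values of -0.46 with Igfbp1, -0.44 with Pdk4 and -0.42 with G6pc, which rise in fasting. The corresponding rho values were -0.42, -0.39 and -0.36.

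The genes whose strain means were most like those of each listed gene were taken from the 9616 genes that reached a mean of 2 on the log2 CPM scale, by Pearson's r over 24 strain means. For Insr they included Lpp (0.87) and Dync1h1 (0.87). For Gcgr they were Nrp1 (0.78), Zmynd8 (0.78) and Hps4 (0.77), and for Irs1 Arid4a (0.68), Uap1l1 (0.67) and Cep350 (0.66). For Irs2 they were Fosl2 (0.82), Zfp746 (0.80) and Mtmr3 (0.77), and for Pik3r1 Zfp213 (0.76), Car14 (0.74) and Mepce (0.73). For Akt2 they were Dele1 (0.77), Cldn3 (0.73) and Grhpr (0.72). Tat, the tyrosine aminotransferase that fasting and glucocorticoids induce, was among the nearest to both Foxo1 (0.77, with Il6ra and Slc38a2 at 0.76 each) and Ppargc1a (0.79, with Il17rb at 0.83 and Tbc1d8 at 0.78).

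Calls among the other genes of the pathway are set beside the share of all genes called. Of 45 other measured insulin pathway genes (Socs1 was listed but not in the table), 26 had at least 1 called main effect, with 46 calls in 360 tests (12.8%), 33 downward and 13 upward. Of 25 other glucagon pathway genes, 13 had 1, with 18 calls in 200 tests (9.0%), 14 downward and 4 upward, and of 8 targets 4 had 1, with 5 calls in 64 tests (7.81%). Over all genes 11.1% of main-effect tests passed. For interactions the shares were 7.26% (49 calls, 36 upward), 4.0% (15 calls, 14 upward) and 5.0% (6 calls), beside 5.96% over all genes. Nothing particular to these lists is read from the counts.

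With chromosome 8, where 29.6% of all genes passed, 19 of the 45 insulin pathway genes did (42.2%; 15 lower, 4 higher), 6 of the 25 glucagon pathway genes (24%; 5 lower, 1 higher) and 2 of the 8 targets (25.0%; both lower). The median log2 fold change was -0.11 for the insulin and for the glucagon list, against -0.01 over all genes. The largest were Igfbp1 (-1.40 ± 0.38, adjusted p = 0.00234) and Gys2, the liver glycogen synthase (-0.70 ± 0.14, adjusted p = 4.36e-05). With chromosome 14, where 22.5% of all genes passed, 13 insulin pathway genes did (28.9%; 11 lower), 2 glucagon pathway genes and 1 target, among them Gys2 (-0.63 ± 0.13, adjusted p = 0.000132). With chromosome 4, where 13.5% of all genes passed, 7 insulin pathway genes (15.6%; 5 higher), 4 glucagon pathway genes (16%) and 1 target did, led by G6pc, the glucose-6-phosphatase (0.92 ± 0.19, adjusted p = 0.000617), and Sik1, a salt-inducible kinase of the cyclic AMP response (0.88 ± 0.23, adjusted p = 0.00619). With chromosome 6 the largest of 4 were Igfbp1 (-1.30 ± 0.35) and Grb14, an adaptor that inhibits the insulin receptor (-0.23 ± 0.06). With chromosome 3 the largest of 3 were Ppargc1b, the paralogue of Ppargc1a (-0.49 ± 0.14), and Ide, the insulin-degrading enzyme (-0.31 ± 0.09). With chromosome 17 the largest of 4 were Pde4b, a cyclic AMP phosphodiesterase (0.61 ± 0.18), and Tsc2, in cis (-0.28 ± 0.06). With chromosome 10 the largest of 3 were Prkcz (0.39 ± 0.09) and Creb1 (-0.23 ± 0.05).

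Most called interactions of these lists, as of all genes, lay in the crosses with chromosome 8. In A14:A8, where 32.4% of all genes passed, 18 insulin pathway genes (40.0%) did (14 upward), 7 glucagon pathway genes (6 upward) and 2 targets, led by Pdk4 (-1.05 ± 0.35, adjusted p = 0.0146) and Gys2 (0.97 ± 0.22, adjusted p = 0.00021). In A6:A8, beside 24.8% of all genes, 15 insulin pathway genes (33.3%; 12 upward), 5 glucagon pathway genes (5 upward) and 3 targets passed, led by Igfbp1 (2.26 ± 0.55, adjusted p = 0.00099). In A3:A8, beside 7.56% of all genes, 7, 3 and 1 passed, led by Trib3, which encodes an inhibitor of Akt (1.30 ± 0.35), and Ppargc1b (1.15 ± 0.27). In A17:A8, beside 8.68% of all genes, 4 insulin pathway genes passed, led by Pik3r3 (-0.87 ± 0.28) and Grb10 (0.69 ± 0.17). Outside these crosses 5 interactions of the lists passed. They were Phlpp2 (-0.71 ± 0.22) and Shc1 (0.31 ± 0.07) in A14:A4, Grb10 (0.59 ± 0.17) in A14:A10, and Sos1 in A6:A4 (-0.41 ± 0.09) and in A17:A4 (-0.38 ± 0.10).

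The last comparison related the 8 genes to fasting plasma glucose, recorded for the same animals. With strain means removed, edgeR's quasi-likelihood test of glucose passed for 2 of the 8 genes, beside 5.35% of all genes. Pik3r1 was higher in mice with higher glucose, by 0.049 ± 0.011 log2 (3.44%) per 10 mg/dL (adjusted p = 0.00358). Its within-strain r was 0.37 over all mice (permutation p = 0.00014, adjusted 0.0155 over all genes) with a rho of 0.32 (permutation p = 0.00021, adjusted 0.0182), and r was 0.29 without the 2 mice farthest from the median. It passed under all 7 alternatives.

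Irs2 was lower in mice with higher glucose, with a coefficient of -0.074 ± 0.022 per 10 mg/dL (adjusted p = 0.0303). The within-strain r of -0.28 did not pass after adjustment (permutation p = 0.00204, adjusted 0.0531), nor did the rho of -0.25 (adjusted 0.0815), and with body weight in the model the edgeR call was lost (adjusted p = 0.0541). Akt2, with a coefficient of -0.010 ± 0.0037, and Irs1, with 0.029 ± 0.012, did not pass (adjusted p = 0.0781 and 0.16). Ppargc1a (-0.032 ± 0.023, adjusted p = 0.443), Foxo1 (0.018 ± 0.014, 0.506), Insr (-0.005 ± 0.0064, 0.717) and Gcgr (-0.0036 ± 0.0063, 0.806) did not pass either.

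**Figure D5:**
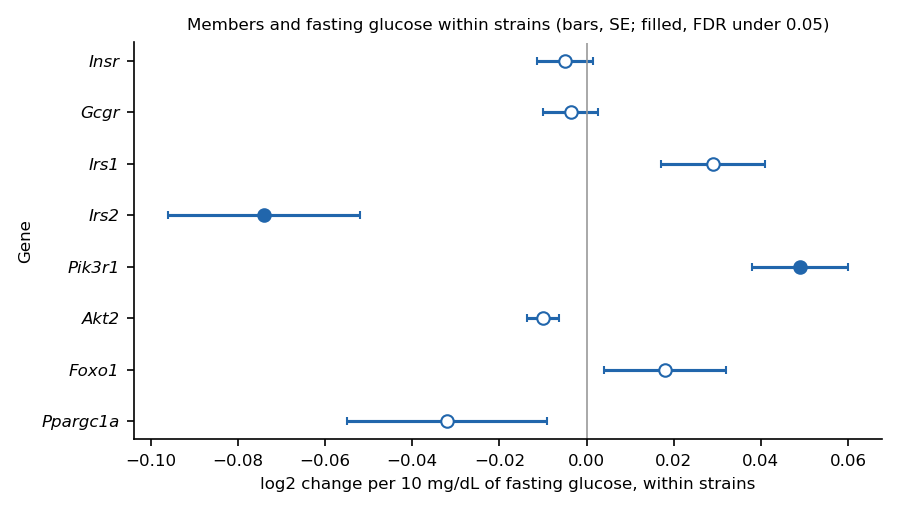
Change of log2 expression per 10 mg/dL of fasting glucose within strains (x axis) for each of the 8 genes (y axis), over all mice, with bars for the SE and filled points for an adjusted p under 0.05. Pik3r1 at 0.049 and Irs2 at -0.074 are filled, on opposite sides of 0.

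Between strains, no relation to glucose passed. Over 24 strain means, none of the 8 genes passed after adjustment over all genes (lowest adjusted permutation p = 0.63), 1 had an unadjusted permutation p under 0.05, and 0 of all 13289 genes passed, with 7.45% at an unadjusted p under 0.05. Ppargc1a had an r of -0.46 (permutation p = 0.0264, adjusted 0.63) and a rho of -0.18 (permutation p = 0.406, adjusted 0.997). It rested on 2 strains with chromosome 3, (B6.A3 x B6.A5)F1 and (B6.A3 x B6)F1, which lay farthest from the median glucose: r was 0.04 without them. For the other 7 genes r ran from -0.30 (Foxo1) to 0.21 (Pik3r1). Without the same 2 strains Foxo1 turned to 0.36, Irs1 to 0.10, Irs2 went from 0.03 to 0.45 and Insr from 0.14 to 0.36.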

How the data were processed

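Total liver RNA was sequenced with a stranded kit. The authors aligned reads with TopHat2 to mm10 with GENCODE vM7, then took reads left unaligned to a genome carrying A/J variants, and deposited raw HTSeq read counts per gene, which were used as deposited. Every deposited gene reached 15 counts in no fewer than 39 mice. Flow cells were not given per mouse in the sources used here. The table held 0 columns of other samples. Groups followed the strain labels, and nothing in them pairs mice across strains.

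Symbols and positions were matched through GENCODE vM21 (GRCm38, the mm10 build; 13242 of 13289 genes). The model was fitted to all genes with edgeR 4.0.16 (R 4.3.3; quasi-likelihood, TMM, trended dispersion) with 5 surrogate variables from sva 3.50.0, and p-values were Benjamini-Hochberg adjusted at a threshold of 0.05. Log2 CPM used a prior count of 2. Glucose and body weight came from the study's table of the same mice. The glucose model had strain means and no surrogate variables, and correlations used 100000 two-sided permutations. DESeq2 1.42.0, other filters, scalings and surrogate variables were alternatives. The model was tested on simulated data. Libraries of 4638701 to 30465477 counts limit precision most for Irs2.

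Members and lists were chosen with earlier results of these data known. All 8 members are named in every comparison, with those past the threshold and the largest of the others. The 3 genes most alike per member, and at most the 2 largest called list genes per effect, are named, except for a few genes that are not reported here.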

Additional observations from a re-analysis of the deposited data

Results flagged for a closer look

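Of the strain and gene combinations with 4 to 10 mice, 8 (4.55%) held a mouse far from the others by Dixon's test on log2 CPM, 7 different mice, where chance flags about 1 in 20. The mouse E679 of (B6.A17 x B6.A4)F1 was flagged in both Insr, where it was lowest at 132.6 CPM (others 149.3 to 152.7), and Pik3r1, where it was highest at 110.3 CPM (others 65.4 to 70.2). The highest Insr value in (B6.A3 x B6.A10)F1 was 197.2 CPM, with the others at 143.7 to 155.5. Irs2 reached 48.01 CPM in 1 mouse of (B6 x B6.A4)F1 (others 9.82 to 17.8) and 19.015 in 1 of (B6.A6 x B6)F1 (others 6.96 to 11.2). Akt2 reached 62.9 CPM in (B6.A3 x B6)F1 (others 52.75 to 57.3) and 60.3 in (B6.A6 x B6.A10)F1 (others 58.0 to 58.2). Gcgr reached 158.99 CPM in (B6.A14 x B6.A5)F1 (others 129.4 to 136.75).

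The effect of a chromosome was called as differing between genetic backgrounds, by the test of the interaction term, in 7 of 120 tests (5.83%). Over all genes 5.96% of such tests passed. The calls were Insr in A14:A8 (0.46) and A6:A8 (0.22) and Akt2 in A6:A8 (0.24) and A14:A8 (0.15). The others were Foxo1 in A3:A8 (0.74) and Ppargc1a in A3:A8 (1.30) and A6:A8 (1.10). Insr in A14:A8 passed in all 12 alternatives, and each of the remaining calls was lost in some.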

How the results depend on the processing

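All 21 called effects kept their direction in 12 alternatives, and Insr with chromosome 14, Insr in A14:A8 and Ppargc1a with chromosome 3 passed in all 12. An FDR of 0.01 and the adjustment of cis and trans genes together left the estimates as reported, so direction could not change under them. The 14 main-effect calls became 5 with 10 surrogate variables, 8 with at least 15 counts in 75% of the mice, 8 with at least 15 counts in every mouse and 6 at an FDR of 0.01. The 7 interaction calls became 1, 4, 6 and 3 under the same settings, and 14 with 5 within-strain components. Of the calls with at least 15 counts in every mouse, 6 were not among those of the reported model, and of those with within-strain components 9. The 3 genes with joint interactions became 1 with 10 surrogate variables, and the 2 genes related to glucose became 1 with body weight as a covariate. The causes were not tested. Shares of all genes called under these settings are not given, so nothing particular to the 8 genes is read from the changes. Leaving out each of 65 double CSS mice in turn gave 5 to 7 interaction calls, 6 to 7 genes with a strain effect and 3 to 4 with joint interactions. It ended the calls of Akt2 in A14:A8 (without 1 mouse), Ppargc1a in A3:A8 (without either of 2) and Foxo1 in A3:A8 (without any of 3), and brought Irs2 past the joint strain test without 1 mouse of (B6.A14 x B6.A4)F1 (adjusted p = 0.0372), (B6.A17 x B6.A10)F1 (0.0498) or (B6.A3 x B6.A5)F1 (0.0332), and Foxo1 past the joint interaction test without 1 mouse of (B6.A17 x B6.A4)F1 (0.0416). These fits kept the surrogate variables and dispersion trend of all mice, and main effects were not run under them. Of the single interactions, only that of the left-out mouse's own cross was run again. The calls of the other crosses were carried over, so most of the count of interaction calls was fixed beforehand. No mouse of A6:A8, a cross of 6 mice, was left out, and its 3 calls stayed in every count. The 15 calls of double CSSs against B6 became 10, 11 and 14 with 0 surrogate variables, with 10 and without the mouse E733. These alternatives were chosen after seeing the data, and the share of all genes called under them is not given either. No paired analysis was possible because the labels carry no replicate numbers shared between strains.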

Other observations

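Among the 20 B6 mice, which are genetically alike, the spread of the 8 genes was very unequal. The SD of log2 CPM was 0.60 for Irs2 and 0.58 for Ppargc1a, at percentiles 94.3 and 93.6 of all genes, and 0.35 for Irs1, 0.29 for Foxo1 and 0.29 for Pik3r1. It was 0.12 for Insr, 0.11 for Gcgr and 0.08 for Akt2, at percentiles 7.52, 5.55 and 0.722. The spread includes counting error, and Irs2 had the fewest counts.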
